A study of Mus musculus with 12 samples.

Results

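Transcripts of the Hox genes were followed across 4 genotypes of whole mouse embryos at E10.5, ordered by the 4 Hox clusters (a, b, c and d) and by paralog number. The genes were those of a list of 38 Hox genes that had a probe set naming 1 gene only in the platform annotation. Of the 38, 33 had such a probe set, out of 18193 genes measured on the arrays in all. Where a gene had several, the brightest on average over the 12 arrays stood for it. The Hox family was picked for description from ranked results of these same arrays, so the genotype differences given here describe these embryos, and no count of Hox genes was read as evidence for a change.

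Hox genes encode homeodomain transcription factors that give cells along the head-to-tail axis their regional identity. In the mouse they lie in clusters, on chromosome 6 (Hoxa), 11 (Hoxb), 15 (Hoxc) and 2 (Hoxd), and genes of the same number in different clusters are paralogs. Within a cluster the low-numbered genes are switched on first and reach farthest forward, into the hindbrain, while the high-numbered genes come on last and pattern the lumbar, sacral and tail regions, the distal limb and the genital tubercle. Paralogs 1-4 are here called anterior, 5-8 central and 9-13 posterior.

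There were 3 embryos each of wild type (wt), of mutants with the acd allele of Acd on both chromosomes (Acdacd/acd, here acd), of p53 nulls (p53-/-, here p53), and of mutants carrying both changes (Acdacd/acd, p53-/-, here double). Acd encodes TPP1, a member of shelterin, the protein complex at chromosome ends, and p53 is a transcription factor activated by DNA damage. The double embryos carry both alterations, so acd differs from wt, and double from p53, by the acd allele as labelled, while p53 differs from wt, and double from acd, by the loss of p53. The labels call the replicates biological, and they give the embryos' age but neither strain nor litter. The series' design text names genes that depend on p53, and genes that do not, as its question.

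Each array read labelled RNA of an embryo on Affymetrix expression arrays, and the deposited values are log2 values normalized by RMA. The array medians lay between 5.32 and 5.40. Double replicates 1 and 2 stood apart: the median of their correlations with the other arrays was 0.972 and 0.987, against 0.995 or more for every other array. By the mean level of 3 Y-linked transcripts the 3 acd embryos, the 3 p53 embryos, wt replicate 1 and double replicate 1 were male. The Acd transcript was at 9.0 in the wt arrays, from 8.84 to 9.05 in p53, from 8.22 to 8.31 in acd and from 8.24 to 8.44 in double. Heart muscle, limb bud and spinal cord markers were on average above the array medians in all genotypes.

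Of the 33 Hox genes measured, 30 exceeded the 40th percentile of an array in 3 arrays or more and were tested, out of 13501 genes tested in all. Hoxa13, Hoxb7 and Hoxd12 were above that percentile in 0 arrays and were not tested. Hoxc13 and Hoxb13, which act at the tail end of the axis, lay just inside the limit: Hoxc13 was above it in 11 arrays, with values from 4.58 to 5.42, while Hoxd12, just outside, ran from 4.10 to 4.55. Background can compress differences at such values, so the single values of Hoxa13, Hoxb7, Hoxb13, Hoxc13 and Hoxd12 are given without weight. These genes do stay in the counts and medians over the 33 genes and their groups, which are not given without them. Hoxa6, Hoxb8, Hoxc11, Hoxc12 and Hoxd4 had no probe set of their own under this rule and were not analysed here. Among the genotypes the 33 genes had a median SD of 0.07 (wt), 0.09 (acd), 0.11 (p53) and 0.20 (double), beside 0.06, 0.07, 0.10 and 0.21 over the genes tested.

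Upstream sequences are shown for 3 genes whose values differed most between embryos or genotypes: Hoxb1 and Hoxd13 for their split among the double embryos, and Hoxd3 for the lowest difference between acd and wt. They come from RefSeq (GRCm38.p6), are written 5′ to 3′ on the gene's strand, and end at the base before the annotated start of the gene, from which distances are counted. For Hoxb1 that start lies 12 bases before the transcript start on which the RefSeq window is set, so its sequence is the shorter, at 238 bases. Hoxb1 is chr11:96365508-96365745, Hoxd3 chr2:74711743-74711992 and Hoxd13 chr2:74667975-74668224, all on the plus strand. Capitals mark a match to the Pbx-Hox motif TGATNNAT in Hoxb1, to the Cdx motif TTTATG in Hoxd3, and to the TATA motif TATAAA on both strands, overlapping, in Hoxd13.

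Hoxb1: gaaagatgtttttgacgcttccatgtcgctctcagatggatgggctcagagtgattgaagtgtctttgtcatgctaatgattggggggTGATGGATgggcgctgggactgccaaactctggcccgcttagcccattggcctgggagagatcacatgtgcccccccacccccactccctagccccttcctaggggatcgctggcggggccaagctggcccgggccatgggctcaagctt

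Hoxd3: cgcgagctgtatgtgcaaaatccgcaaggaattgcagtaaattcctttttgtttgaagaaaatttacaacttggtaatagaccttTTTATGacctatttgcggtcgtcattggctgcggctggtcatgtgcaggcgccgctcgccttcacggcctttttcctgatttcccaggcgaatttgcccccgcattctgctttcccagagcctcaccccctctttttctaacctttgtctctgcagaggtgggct

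Hoxd13: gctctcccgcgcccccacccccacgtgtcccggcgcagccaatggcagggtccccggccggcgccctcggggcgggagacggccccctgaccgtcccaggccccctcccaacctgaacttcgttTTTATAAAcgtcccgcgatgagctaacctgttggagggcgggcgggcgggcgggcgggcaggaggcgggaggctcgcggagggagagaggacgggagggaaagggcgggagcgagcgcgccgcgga

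The Hoxb1 match began 150 bases before the start, that of Hoxd3 165 bases before it, and those of Hoxd13 126 and 124 bases before it. The Hoxd3 window also overlaps the annotated genes Gm38462 and Hoxd3os1. Upstream windows of 250 bases or less were given for 22 of the 38 listed genes and 19 of the 33 measured, 24 windows in all. The Pbx-Hox motif (both strands) was in 16.7% of the Hox windows, or 4, and in 7.69% of 32841 windows of all genes. The Cdx motif was in 20.8% (5 windows) against 10.8%, the TATA motif in 16.7% (4 windows) against 12.4%, and the core homeodomain motif TAATNA, whose letters can overlap the Cdx motif, in 25% (6 windows) against 24.4%. Hox windows had a median GC content of 58.6% against 52.4%, and a median ratio of observed to expected CpG of 0.721 against 0.374. A match describes these letters alone, and it was not set against the expression values.

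In acd embryos, Hox transcripts of all 4 clusters lay lower than in wt, by small amounts. The difference of means was below 0 for 31 of the 33 genes, beside 51% of all genes measured, with a median of -0.16 on the log2 scale, beside -0.0022 over all genes. It ran from -0.44 for Hoxd3, which patterns the upper neck vertebrae, to 0.02 for Hoxb1, which gives the fourth hindbrain segment its identity. Hoxb1 and Hoxb4 were the 2 genes whose mean was not lower. No Hox gene passed limma's test with Benjamini-Hochberg adjustment at 0.05: 0 of 30 tested were called, beside 0.0148% of all genes tested, and at an unadjusted p under 0.05 there were 12, all lower, beside 1.77% of all genes in either direction and 1.13% lower. The 12 became 7 without wt replicate 1 (0.955% of all genes) or without acd replicate 3 (1.04%), and 8 with sex in the fit (4.28%). It rose to 17 with only the acd and wt arrays in the fit (10.1%) and to 18 with array weights (13.4%), where the share of all genes rose too. For 19 of the 33 genes every acd array lay below every wt array, beside 8.35% of genes measured, and for 0 every acd array lay above, beside 7%. Hoxa13 and Hoxc13, near background, are among the 19.

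The posterior genes had the lowest median. Their 14 members were all lower in acd, with a median of -0.26, while the 10 anterior members had a median of -0.13 (8 lower) and the 9 central members -0.12 (9 lower). The 14 include Hoxa13, Hoxb13, Hoxc13 and Hoxd12, which lay near background. Acd arrays lay below all wt arrays for 8 of the posterior, 6 of the anterior and 5 of the central genes. By cluster the medians were -0.25 for Hoxa (9 of 9 lower), -0.08 for Hoxb (7 of 9), -0.16 for Hoxc (7 of 7) and -0.14 for Hoxd (8 of 8). The Hoxa cluster had acd below all wt arrays for 7 of its 9 genes, the Hoxb cluster for 5 of 9, Hoxc for 3 of 7 and Hoxd for 4 of 8.

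**Figure D1:**
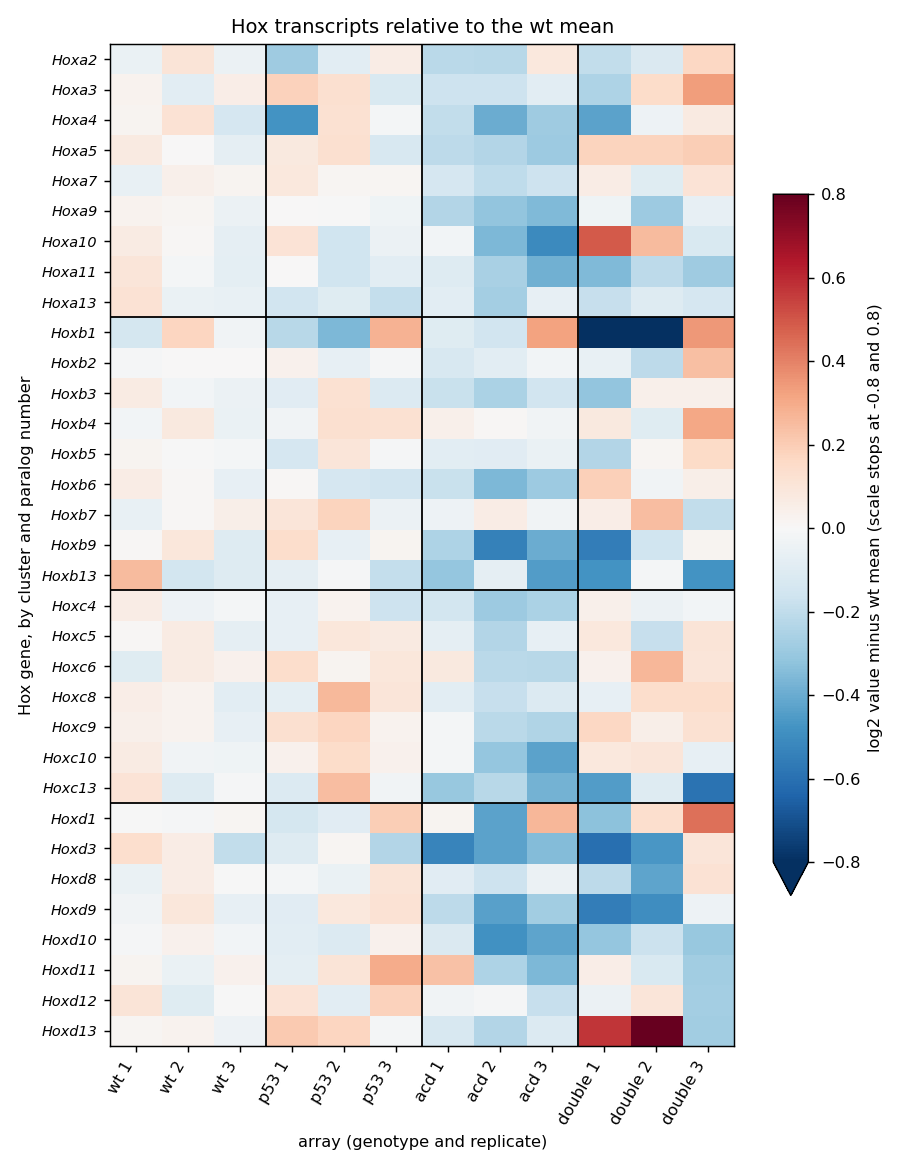
Each cell is the log2 value of a Hox gene (rows, by cluster and paralog number) in 1 array (columns, by genotype and replicate) minus the mean of the 3 wt arrays, with blue lower and red higher than wt. The acd columns are mostly blue, with 22, 29 and 26 of the 33 genes below the lowest wt array, while the double columns hold both colours and differ from each other, with Hoxb1 lowest and Hoxd13 highest in double replicates 1 and 2.

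Array by array, the lower level was present in each acd embryo. The mean over the 33 genes, relative to wt, was -0.12, -0.24 and -0.19 in acd replicates 1, 2 and 3, against -0.04 to 0.03 in the wt arrays and -0.03 to 0.02 in the p53 arrays. In acd replicate 1, 22 genes lay below the lowest wt array, beside 25% of all genes; in replicate 2 it was 29 beside 33.3%, and in replicate 3 26 beside 30.8%. Above the highest wt array lay 3, 1 and 2 genes, beside 28.2%, 23.8% and 29.8%. The acd embryos did not share 1 profile along the axis. The anterior genes averaged -0.16, -0.24 and -0.05 in replicates 1, 2 and 3, and the posterior genes -0.11, -0.28 and -0.33. Replicate 3 thus had the anterior mean nearest wt and the lowest posterior mean. Its anterior genes were not each near wt: 6 of the 10 lay below the lowest wt array, and 2 above the highest, Hoxb1 (0.32) and Hoxd1 (0.27).

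**Figure D2:**
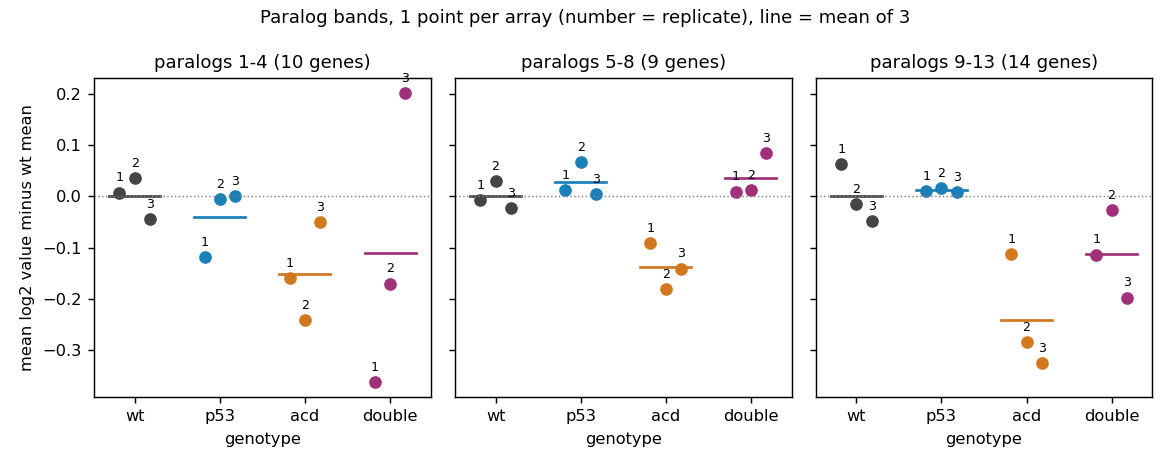
Mean log2 value relative to the wt mean for the anterior (10 genes), central (9) and posterior (14) Hox genes, 1 point per array with its replicate number, and a line at the mean of the 3 arrays of a genotype. All acd points lie below 0 in each panel, the p53 points lie between -0.12 and 0.07, and the double points spread from -0.36 to 0.20 for the anterior genes.

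Among the posterior genes, Hoxa9, which helps pattern the thoracic and lumbar spine, measured 9.94, 9.87 and 9.82 in acd replicates 1 to 3 against 10.21, 10.20 and 10.13 in wt. The acd and wt arrays did not overlap, and the difference was -0.30 ± 0.08, or 0.811 times the wt level on a linear scale. Each ± of a difference is limma's SE, whose spread is estimated over all arrays of the fit, the double embryos included. It is thus not the spread of the 3 acd and 3 wt arrays alone. Hoxd10, a lumbar gene that also specifies hindlimb motor neurons, measured 8.17, 7.81 and 7.87 in acd against 8.28, 8.32 and 8.27 in wt. Its groups did not overlap either, although acd replicate 1 came near the lowest wt array, and the difference was -0.34 ± 0.10. Hoxb9, a thoracic gene, measured 8.76, 8.46 and 8.60 in acd against 9.01, 9.09 and 8.90 in wt, and Hoxd9, its paralog, 8.79, 8.56 and 8.72 against 8.97, 9.09 and 8.93. Both were lower in each acd array, by -0.39 ± 0.14 and -0.31 ± 0.13. Hoxa10, which acts in the lumbar spine and the reproductive tract, measured 7.89, 7.56 and 7.41 in acd against 7.98, 7.92 and 7.84 in wt, so acd replicate 1 lay inside the wt range. Each of these had an adjusted p of 1.0 in limma with Benjamini-Hochberg adjustment.

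Among the anterior genes, Hoxd3 measured 6.94, 7.04 and 7.12 in acd against 7.61, 7.53 and 7.28 in wt. The groups did not overlap, and its difference of -0.44 ± 0.16 corresponds to 0.739 times the wt level. Hoxc4, which acts in the neck and upper thorax, measured 9.16, 9.02 and 9.05 in acd against 9.36, 9.26 and 9.29 in wt (-0.23 ± 0.08). Hoxb3, a hindbrain gene, measured 9.39, 9.31 and 9.41 against 9.63, 9.54 and 9.52, and Hoxa3, which is needed for thymus and parathyroid, 7.56, 7.56 and 7.64 against 7.76, 7.64 and 7.78. Hoxb3 was clearly separate in the 2 genotypes, whereas the highest acd value of Hoxa3 lay just under the lowest wt value. Hoxb1 showed no such separation, with 7.24, 7.18 and 7.66 in acd against 7.20, 7.51 and 7.31 in wt.

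Of the central genes, Hoxa5, which acts in the lung and at the neck-to-thorax border, measured 9.05, 9.02 and 8.96 in acd against 9.32, 9.26 and 9.18 in wt. Its acd arrays were all lower, by -0.25 ± 0.08. Hoxb6, a thoracic and lateral plate gene, measured 8.25, 8.07 and 8.14 against 8.49, 8.44 and 8.36 (-0.28 ± 0.08). Hoxc8, which acts in brachial motor neurons and the thoracic skeleton, measured 8.93, 8.83 and 8.91 against 9.07, 9.05 and 8.93, and its highest acd value nearly met the lowest wt value. Hoxd8 overlapped, at 8.53, 8.45 and 8.57 against 8.56, 8.68 and 8.62. Limma's adjusted p, by Benjamini-Hochberg, was 1.0 for each anterior and central gene named.

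**Figure D3:**
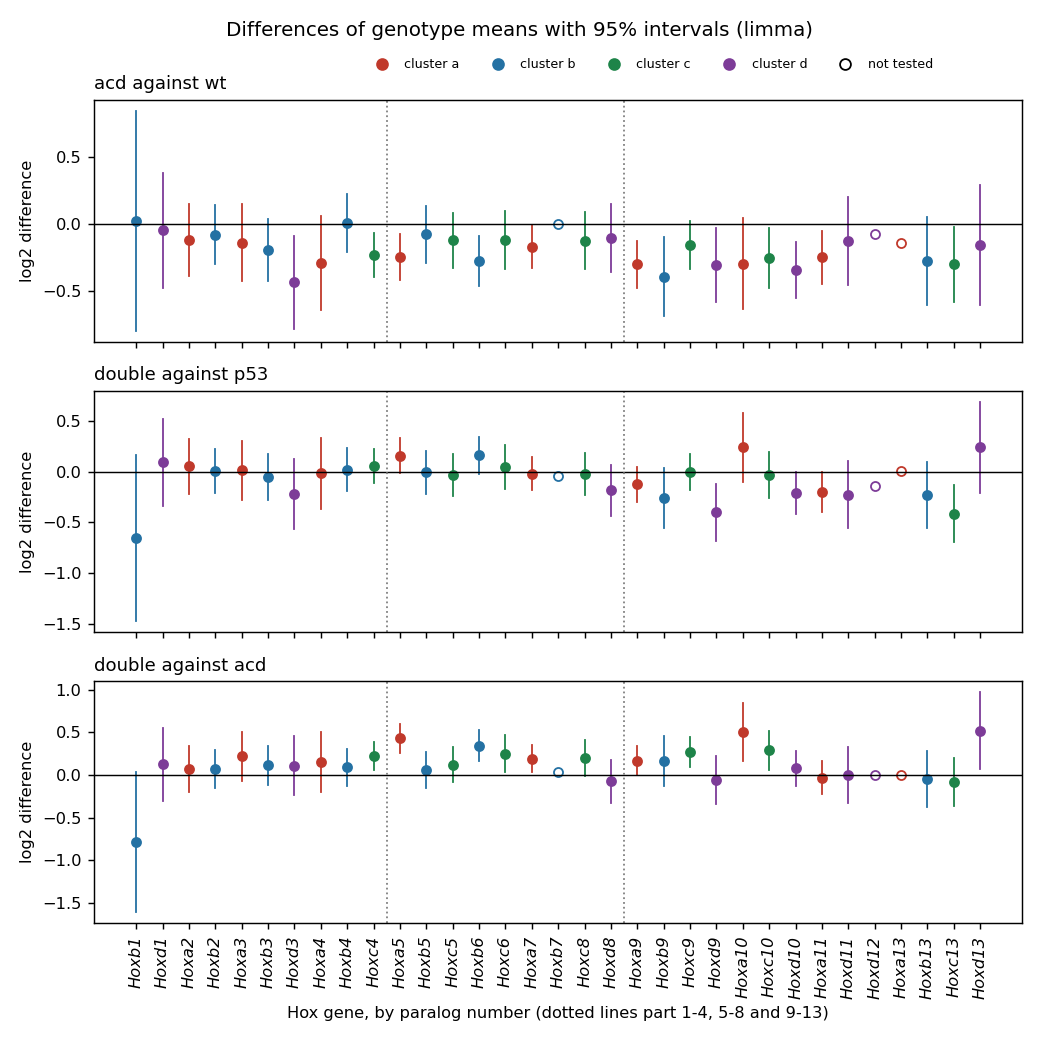
Differences of genotype means on the log2 scale with 95% intervals from limma (3 arrays per genotype), genes ordered by paralog number along the horizontal axis and coloured by cluster, with open points for the 3 genes not tested. In acd against wt 31 of 33 points lie below 0, in double against p53 20 of 33, and in double against acd 26 of 33 lie above 0.

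Sex and genotype were partly tied, since all acd embryos were male and 1 of 3 wt embryos was. The tie also held in p53 against wt, double against p53 and double against acd, since all p53 embryos were male and 1 of 3 double embryos was. The interaction was tied to sex as well, since it sets wt and double against acd and p53. Against the male wt array alone, 25 of the 33 genes were lower in all 3 acd arrays, beside 28.8% of all genes. With sex as a term of the fit the Hox median was -0.18, the posterior median -0.27 and the anterior median -0.03. All acd and p53 embryos were male, so that term was set by the wt and double embryos alone. The anterior mean relative to wt was 0.01 in male wt replicate 1 and 0.04 and -0.04 in wt replicates 2 and 3. In double it was -0.36 in male replicate 1, which stood apart, and -0.17 and 0.20 in replicates 2 and 3. The part of sex in the anterior difference cannot be read from this fit. In RNA of whole embryos, fewer cells of a kind and less RNA per cell cannot be told apart, and RMA hides a change of total RNA.

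Loss of p53 alone went with no shared shift of Hox transcripts. In p53 against wt, 17 genes had a higher and 16 a lower mean, beside 48.6% higher among all genes measured, with a median of 0.01 and a range from -0.15 (Hoxa13) to 0.12 (Hoxd13). None of the 30 tested was called by limma (0% of all genes), and 0 had an unadjusted p under 0.05 (0.726% of all genes). With sex in the fit it was again 0 (3.36% of all genes). The median was -0.05 for anterior, 0.03 for central and 0.03 for posterior genes. Hoxa13 was the 1 gene whose p53 arrays all lay below wt (3.9% of all genes), at 4.15, 4.21 and 4.11 against 4.42, 4.25 and 4.24, values that lie at background. For 0 genes the p53 arrays all lay above wt (3.69%). In p53 replicates 1, 2 and 3, 12, 9 and 9 genes lay below the lowest wt array (34.7%, 26.7% and 25.5% of all genes), and 11, 14 and 10 above the highest (21.6%, 33.9% and 31.3%). The 95% interval of the difference ran from -0.15 to 0.20 for Hoxa5 and from -0.28 to 0.11 for Hoxa11.

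Hoxa4, which acts in the neck vertebrae, measured 6.43, 7.03 and 6.89 in p53 against 6.92, 7.02 and 6.77 in wt. Its difference of -0.12 ± 0.16 came from p53 replicate 1 and was 0.06 without that embryo. Hoxd13, which shapes digits and the genital tubercle, measured 7.04, 7.01 and 6.82 against 6.85, 6.86 and 6.79, and Hoxd11, of the same cluster, 6.09, 6.28 and 6.47 against 6.19, 6.12 and 6.20. Both genes overlapped with wt.

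Without p53, the acd allele went with no common lower level of Hox transcripts. In double against p53, 20 of 33 genes were lower (49.5% of all genes measured), with a median of -0.02. None was called by limma (0.00741% of all genes tested), and 3 had an unadjusted p under 0.05, all lower (10.7% of all genes in either direction, 5.67% lower). The 3 became 6 without double replicate 2 (12.3% of all genes), 8 without double replicate 3 (32%) and 6 with sex in the fit (30.4%), not all of them lower. The posterior median was -0.17, with 10 of 14 lower, while the anterior and central medians were 0.01 and -0.02. The overall median was -0.08 without double replicate 3 and 0.04 without replicates 1 and 2. By cluster the medians were 0.01 for Hoxa, -0.04 for Hoxb, -0.02 for Hoxc and -0.20 for Hoxd. Double arrays lay below all p53 arrays for Hoxa11 and Hoxd10 (4.61% of all genes) and above them for Hoxa5 (3.81%).

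The acd and wt arrays and the double and p53 arrays share no embryo, so the allele's differences with and without p53 can be set side by side. Over the 33 genes they had a Pearson correlation of 0.11 and a Spearman correlation of 0.25 (over all 18193 genes -0.03 and 0.07). These points share the platform and its normalization, and genes are not independent replicates. Hoxd10 and Hoxa11, which patterns the sacral spine, forearm and kidney, were lower for the allele in both backgrounds. Hoxa11 measured 7.55, 7.39 and 7.26 in acd against 7.75, 7.63 and 7.57 in wt, and 7.30, 7.44 and 7.37 in double against 7.65, 7.49 and 7.56 in p53. Hoxd10 measured 7.98, 8.12 and 7.99 in double against 8.21, 8.18 and 8.32 in p53. Neither gene overlapped between the genotypes in either pair.

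Hoxa11 differed by -0.25 ± 0.09 with p53 present and by -0.20 ± 0.09 without it, and Hoxd10 by -0.34 ± 0.10 and -0.21 ± 0.10. The test of the difference of differences (interaction) gave 0.05 ± 0.13 for Hoxa11 and 0.13 ± 0.14 for Hoxd10, with adjusted p of 0.939 and 0.880 in limma with Benjamini-Hochberg adjustment. Hoxd9 also had a lower mean in both backgrounds, at 8.45, 8.50 and 8.96 in double against 8.91, 9.08 and 9.12 in p53 (-0.40 ± 0.13, adjusted p 0.463), but double replicate 3 lay among the p53 arrays. Hoxc13 measured 4.73, 5.07 and 4.58 in double against 5.06, 5.42 and 5.14 in p53 (-0.42 ± 0.13, adjusted p 0.463), at levels near background.

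Between double and acd, which differ by p53 and share the acd arrays with the comparison of acd with wt, most Hox genes were higher in double. The mean was higher for 26 of 33 genes (49.1% of all genes measured), with a median of 0.12. None of the 30 tested was called by limma (0% of all genes), and 9 had an unadjusted p under 0.05, all higher (12.6% of all genes in either direction, 6.32% higher). The 9 became 4 without acd replicate 2 (7.55% in either direction), 5 with only these genotypes in the fit (4.26%), 13 without double replicate 1 (13%) and 14 with array weights (31.1%). The medians were 0.11 for anterior (9 of 10 higher), 0.19 for central (8 of 9) and 0.04 for posterior genes (9 of 14), and 0.17, 0.07, 0.22 and 0.04 for the clusters a, b, c and d. All double arrays lay above all acd arrays for Hoxa5, Hoxa7, Hoxb6, Hoxc4, Hoxc8 and Hoxc9 (4.48% of all genes), of which 4 are central genes, and for 0 genes below them (6.26%). Without acd replicate 1 that count was 11 (10.2% of all genes), without double replicate 1 it was 12 (10.7%), and without double replicate 3 it was 9 (18.3%). The median was 0.05 when sex entered the fit. Without double replicates 1 and 2 it was 0.23, with 22 genes above all acd arrays (22.9%).

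Hoxa5 had the tightest values in the double embryos, at 9.43, 9.43 and 9.45. These lay above the arrays of every other genotype, of which p53 ran from 9.13 to 9.38. The double minus acd difference was 0.43 ± 0.08, or 1.35 times the acd level, with an adjusted p of 0.371 in limma. Hoxb6 measured 8.62, 8.41 and 8.48 in double, against 8.25 or less in acd (0.35 ± 0.08, adjusted p 0.371), and Hoxc4 9.35, 9.26 and 9.28 against 9.16 or less (0.22 ± 0.08). Hoxc9, which sets the thoracic identity of motor neurons, measured 8.70, 8.59 and 8.66 in double against 8.53, 8.32 and 8.30 in acd and 8.58, 8.57 and 8.47 in wt. Of these genes Hoxa5 and Hoxc9 also had all double arrays above all wt arrays.

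The interaction was above 0 for 26 of 33 genes (50.1% of all genes measured), with a median of 0.14, and for 9 of 9 Hoxa genes (median 0.17). The overall median was 0.07 without double replicate 3, 0.06 when sex entered the fit, and 0.23 without double replicates 1 and 2. None was called by limma (0% of all genes), and 4 had an unadjusted p under 0.05, all higher (3.93% in either direction, 2.46% higher): Hoxb6 (0.44 ± 0.12), Hoxa5 (0.40 ± 0.11), Hoxc4 (0.29 ± 0.11) and Hoxa10 (0.54 ± 0.22). The count was 2 without wt replicate 1 (1.84% of all genes), p53 replicate 3 (2.21%) or acd replicate 2 (2.42%). The adjusted p of the 4 genes was 0.879 in limma with Benjamini-Hochberg adjustment. Hence a difference of the allele's effect between the backgrounds was not shown for any Hox gene.

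The double embryos were not alike in their Hox profile. The anterior genes averaged -0.36, -0.17 and 0.20 relative to wt in double replicates 1, 2 and 3, the central genes 0.01, 0.01 and 0.08, and the posterior genes -0.11, -0.03 and -0.20. Replicate 3 was thus graded along the axis: across the 33 genes its deviation from wt had a Spearman correlation of -0.83 with paralog number. The same value was -0.60 in acd replicate 3, and it lay between -0.39 and 0.40 in the other 10 arrays. These are descriptions over 33 genes of the same array, with neighbours in a cluster among them. Markers of other tissues also differed in that embryo: the 9 heart muscle genes averaged 0.15, -0.11 and -0.79 relative to wt in double replicates 1, 2 and 3, and the 15 forebrain and midbrain genes -0.22, 0.09 and -0.29. The hindbrain and spinal cord list was at 0.04 and the limb bud list at 0.03 in replicate 3. The part of these tissues in the gradient was not tested. Below the lowest wt array lay 17, 17 and 12 Hox genes in double replicates 1, 2 and 3 (35%, 37% and 35.7% of all genes), and above the highest 11, 10 and 14 (44.9%, 33.1% and 23.6%).

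The gradient in double replicate 3 can be read from single genes. Hoxd1 stood at 7.10 in that array against 6.65 to 6.68 in wt, Hoxb4 at 8.29 against 7.92 to 8.05, and Hoxa3 at 8.06 against 7.64 to 7.78, each above wt. In the same array Hoxa11 was at 7.37 against 7.57 to 7.75, Hoxd11, which patterns the forearm with Hoxa11, at 5.89 against 6.12 to 6.20, and Hoxd13 at 6.56 against 6.79 to 6.86, each below wt. These genes, other than Hoxa3 and Hoxd13, were chosen after their values were seen.

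Hoxb1 and Hoxd13, at opposite ends of the Hox series, set double replicates 1 and 2 apart from the rest. Hoxb1 measured 5.77 and 6.29 in those embryos and 7.68 in replicate 3, against 6.98 to 7.66 over the other 9 arrays. Hoxd13 measured 7.40 and 7.63 in replicates 1 and 2 and 6.56 in replicate 3, against 6.60 to 7.04 over the other 9 arrays. Hoxa10 followed the same order at a smaller scale, with 8.41, 8.17 and 7.80 in double replicates 1, 2 and 3 against 7.41 to 8.02 elsewhere. Hoxd3, by contrast, was low in replicates 1 and 2 (6.87 and 7.01) and within the wt range in replicate 3 (7.57). Hoxd9 split the same way, at 8.45, 8.50 and 8.96.

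Over all 3 double embryos no Hox gene with this split was called: Hoxb1 differed from wt by -0.76 ± 0.37 and Hoxd13 by 0.36 ± 0.21, with adjusted p of 0.458 and 0.481 in limma with Benjamini-Hochberg adjustment. The 2 sides of the split gave opposite directions. The split was seen in these same values, and each fit that follows leaves out the side that disagrees. Adjusted p-values of such a fit thus do not stand as evidence for a change in double embryos. Without double replicate 3, Hoxb1 was -1.31 ± 0.21 against wt (adjusted p 0.00433) and Hoxd13 0.68 ± 0.10 (adjusted p 0.00227), and Hoxd3 (-0.54 ± 0.11), Hoxd8 (-0.32 ± 0.09) and Hoxd9 (-0.53 ± 0.10) were called as well, among 12.2% of all genes tested. In that fit 5 Hox genes were also called against p53 (Hoxb1, Hoxd3, Hoxd8, Hoxd9 and Hoxd13, among 13%), 5 against acd (Hoxa5, Hoxa10, Hoxb1, Hoxb6 and Hoxd13, among 13.9%) and 2 for the interaction (Hoxb1 and Hoxd13, among 3.25%). Without replicates 1 and 2, Hoxb1 was 0.34 above wt and Hoxd13 -0.28, and 0 Hox genes were called in any comparison.

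Other transcripts moved with that split. The 11 interferon response genes averaged 3.94 and 3.34 above wt in double replicates 1 and 2 and 0.15 in replicate 3, with a mean level of 4.95 to 5.07 (wt), 5.12 to 5.25 (acd), 4.94 to 5.12 (p53) and 5.15 to 8.95 (double). The 10 macrophage markers averaged 1.43, 0.90 and -0.15, with a mean level of 5.55 to 5.67 in wt and 5.45 to 7.03 in double, and the 9 liver and endoderm markers 1.61, 1.46 and 0.31. The liver list was not particular to the split: it stood at 1.36 in p53 replicate 2, against -0.02 and -0.18 in the other p53 arrays, with a mean level of 6.89 to 7.11 (wt), 7.28 to 7.39 (acd), 6.80 to 8.34 (p53) and 7.29 to 8.59 (double). Interferon genes Irf7, Ifit1, Ifit3 and Oasl2 lay below the 40th percentile in every wt, acd and p53 array. Their part in the Hox values was not tested.

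**Figure D4:**
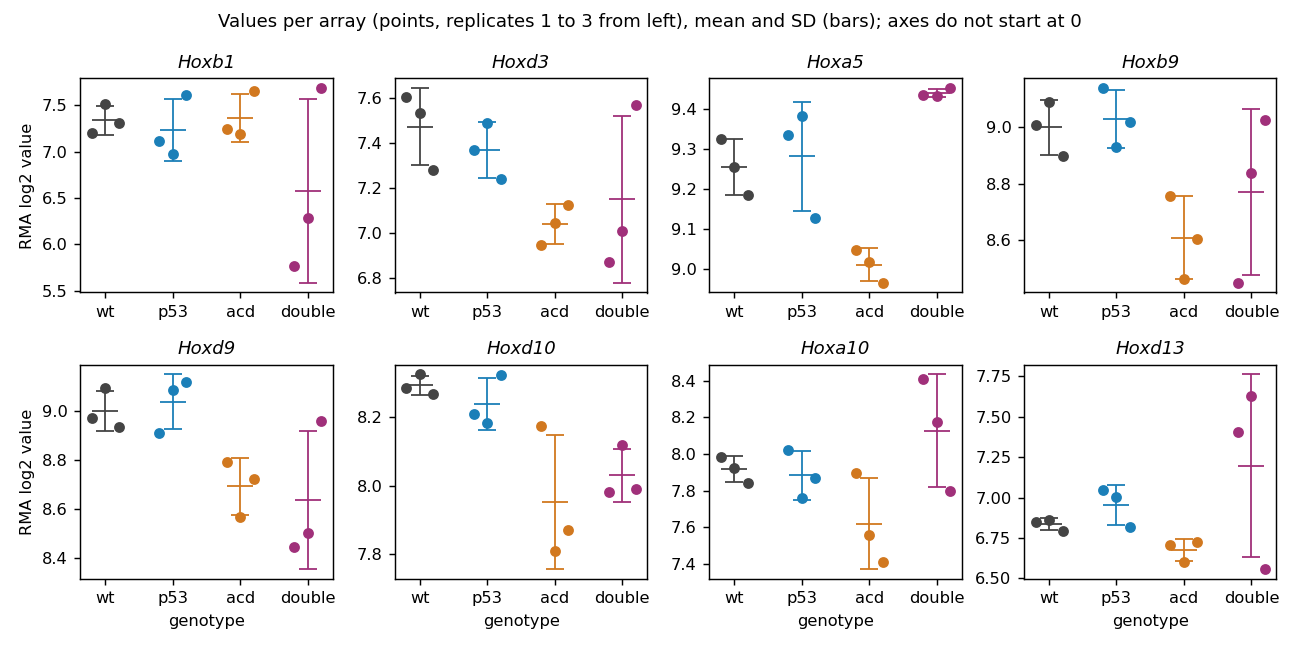
RMA log2 values of 8 Hox genes in the 12 arrays, as points by genotype with replicates 1 to 3 from left to right, and bars at the mean ± SD of 3 arrays. Hoxb1 and Hoxd13 show the double embryos split into replicates 1 and 2 against replicate 3, while Hoxa5 is tight and highest in double, and Hoxd10 is below wt in all acd and double arrays.

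Against wt, the double embryos had 13 Hox genes higher and 20 lower (50.5% of all genes measured lower), with a median of -0.02, and the posterior median was -0.14. None of the 30 tested was called by limma (0.0148% of all genes), and 5 had an unadjusted p under 0.05 (11.1%), with Hoxa5 higher (4.69% higher among all genes) and Hoxa11, Hoxc13, Hoxd9 and Hoxd10 lower (6.41% lower). The 5 became 3 without wt replicate 2 (4.94% of all genes) and 9 without double replicate 3 (31.6%). All double arrays lay below wt for Hoxa11, Hoxa13, Hoxc13 and Hoxd10 (7.02%), of which Hoxa13 and Hoxc13 were near background, and above it for Hoxa5 and Hoxc9 (5.24%). The overall median was -0.10 without double replicate 3 and 0.05 without replicates 1 and 2. Without double replicates 1 and 2 the medians against wt were 0.20 for anterior, 0.11 for central and -0.20 for posterior genes.

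Further probe sets gave a second reading of some members. Of 15 probe sets not chosen, 10 lay above the filter, for 8 genes, and 9 of the 10 had the sign of the chosen probe set in acd against wt, with a median of -0.08. In double against acd 7 of 10 shared the sign. The other Hoxb3 probe set measured 7.73, 7.73 and 7.55 in acd against 7.87, 7.89 and 7.81 in wt, again with no overlap. For Hoxa5 the other probe set measured 8.88, 8.93 and 8.86 in double against 8.58 to 8.74 in wt, again all higher, but 8.63, 8.60 and 8.55 in acd, which overlapped with wt. Its p53 arrays measured 8.68, 8.91 and 8.68, so p53 replicate 2 lay among the double arrays, unlike in the chosen probe set. The other Hoxd13 probe set, which was above the 40th percentile in 2 arrays, measured 4.50, 4.52 and 4.47 in double against 4.35 to 4.75 in wt, and so did not show the split of the double embryos. These values were chosen after the others were seen.

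Noncoding RNAs of the clusters also had lower means in acd. Of 15 listed, 3 were measured: Hoxb5os, Hoxa11os and Hoxd3os1, antisense transcripts of the clusters b, a and d. All 3 were lower in acd than in wt (median -0.25) and higher in double than in acd (median 0.24), with 0 called by limma and 0 at an unadjusted p under 0.05. Hoxb5os measured 10.86, 10.84 and 11.06 in acd against 11.20, 11.24 and 11.13 in wt, with no overlap. Hoxa11os measured 6.47, 6.28 and 6.34 against 6.39, 6.58 and 6.62, and Hoxd3os1 6.40, 6.56 and 6.29 against 6.39, 6.80 and 6.81, both with overlap. The 16 measured genes that flank the clusters had a median of -0.01 in acd against wt, with 10 lower, and 0 called.

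Among genes whose products work with Hox factors or regulate them, none was called in acd against wt. The 8 measured cofactors of the Pbx, Meis and Pknox families, which bind DNA together with Hox proteins, had a median of -0.07 in acd against wt and 0 called, with 0 at an unadjusted p under 0.05. The 22 Polycomb and Trithorax genes, whose products keep Hox genes silent or active, had a median of -0.04 (17 lower) with 0 called and 0 at an unadjusted p under 0.05. In double against wt 19 of the 22 were lower, with a median of -0.09, and 7 had an unadjusted p under 0.05 (11.1% of all genes tested). Their mean relative to wt was -0.28, -0.01 and 0.03 in double replicates 1, 2 and 3, so the low mean was that of replicate 1.

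Among 13 measured signals and factors that induce or limit Hox genes, 9 had a lower mean in double than in wt (median -0.07), 0 were called and 1 had an unadjusted p under 0.05, and their mean relative to wt was -0.23, -0.08 and -0.01 in double replicates 1, 2 and 3. Cyp26a1, the retinoic acid degrading enzyme of the tail bud, had the smallest p in double against wt. It measured 7.28, 7.05 and 7.62 in double against 7.71, 7.82 and 7.72 in wt and 7.81, 7.75 and 7.90 in acd, below both in all arrays (-0.43 ± 0.13 against wt, adjusted p 0.447 in limma). In p53 it measured 7.55, 7.65 and 7.91, so double replicate 3 lay among the p53 arrays. Cdx2, a direct regulator of central and posterior Hox genes, measured 5.25, 5.62 and 5.68 in double against 5.88, 5.78 and 6.36 in p53, all lower but around the array medians (-0.49 ± 0.17, adjusted p 0.463 in limma). In acd Cdx2 measured 5.95, 5.70 and 6.16, above all double arrays, but in wt 5.58, 5.76 and 5.88, which overlapped with double. Its interaction was -0.69 ± 0.24 (adjusted p 0.879).

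Markers of the regions that express Hox genes gave values of their own. The 16 tail bud genes averaged -0.02, -0.06 and 0.11 relative to wt in acd replicates 1 to 3 and -0.27, -0.25 and -0.14 in double, with mean levels of 6.49 to 6.54 (wt), 6.46 to 6.63 (acd), 6.50 to 6.72 (p53) and 6.25 to 6.37 (double). Of them 9 were higher and 7 lower in acd against wt, and 14 of 16 were lower in double against wt, with Cdx4 below the 40th percentile in every array. The 15 hindbrain and spinal cord genes averaged -0.01, -0.15 and -0.08 in acd, with mean levels of 6.56 to 6.70 against 6.64 to 6.76 in wt, and 9 of 15 lower. The 16 limb bud genes averaged 0.06, -0.00065 and -0.07 in acd, with 9 of 16 lower. The 15 genes listed as markers of forebrain and midbrain, regions that lack Hox transcripts, averaged -0.01, 0.03 and 0.03, with 5 of 15 lower. Of these, En1, Dmbx1 and Barhl2 lay below the 40th percentile in every array. RNA of whole embryos cannot tell whether the listed genes were read from those regions alone. Further lists had a higher mean in all 3 acd embryos, with 0 genes called: liver and endoderm at 0.42, 0.31 and 0.33 above wt (9 of 9 genes higher), interferon response at 0.12, 0.25 and 0.13 (10 of 11) and heart muscle at 0.05, 0.11 and 0.15 (8 of 9). The part of tissue proportions in the Hox differences was not tested.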

How the data were processed

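Whole-embryo RNA of 12 embryos, labelled from 250 ng per array, was measured on Affymetrix arrays, 1 array per embryo. Per the series' design text, the authors ran justRMA on the scanner files, and they deposited log2 values for 45101 probe sets, of which 64 were controls. Quantile normalization within RMA hides changes of total RNA. The platform annotation named 1 gene for 34945 probe sets and several for 932. The brightest probe set on average stood for a gene, which was tested if 3 arrays or more had it over their 40th percentile. Genotype means were fitted over the 12 arrays with limma 3.58.1 in R 4.3.3 (8 residual degrees of freedom, two-sided, Benjamini-Hochberg adjustment over the genes tested, threshold 0.05). The fit was tested on simulated data. The number of arrays limits the precision. Nothing says that embryos came from separate litters, so p-values measure the spread between these embryos.

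The rule for values per array took the 4 Hox genes with the largest difference in each of 6 comparisons, the highest Hox gene of each cluster and paralog range, and up to 3 genes per list by smallest p; further genes were picked with their values in view. The Hox genes, gene lists and alternatives were chosen with earlier results of these data known. Same-numbered embryos did not deviate together (r from -0.23 to 0.39 over 18 pairs), so the numbers were not taken as pairs. The p53 transcript was not analysed here. Alternatives were a replicate block, sex, array weights, other filters, probe set rules and normalizations, the compared genotypes alone, and leaving out arrays.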

Additional observations from a re-analysis of the deposited data

How the results depend on the processing

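Counts of called genes are at a limma adjusted p under 0.05. The Hox median in acd against wt kept its sign under each alternative tried, and 0 Hox genes were called in acd against wt or p53 against wt under any. Called genes with the replicate block numbered 1 in acd against wt and 1 in double against wt, and the block changed no Hox call; the numbers do not pair the embryos. With sex as a term the genes called numbered 1 in acd against wt, 1 in p53 against wt, 2 in double against p53, 1 in double against wt and 1 for the interaction, the Hox median difference was 0.051 in double against acd and 0.061 for the interaction, and Hoxa4 in p53 against wt was 0.016. In double against wt 1 gene was called with no filter, a 20th percentile filter, the probe set of largest SD, median centring or repeated quantile normalization, and 0 with only the genotypes compared. The mean of all probe sets put Hoxd13 at -0.025 in p53 against wt. Array weights gave 122 genes called in double against p53, 1774 in double against acd and 1805 in double against wt, with 6 Hox genes called in each of the last 2 comparisons. The cause of these moves was not tested.

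Without double replicates 1 and 2 together, which leaves 1 double embryo assumed to vary like the others, 28 genes were called in double against p53, 31 in double against acd, 26 in double against wt and 25 for the interaction. The Hox median difference was then 0.043 in double against p53, 0.233 in double against acd, 0.048 in double against wt and 0.227 for the interaction. Hoxb1 turned to 0.45 against p53, 0.32 against acd, 0.34 against wt and 0.42 for the interaction, and Hoxd13 to -0.12 against acd and -0.28 against wt. Counts of Hox genes by unadjusted p are left out for this fit, which holds 1 double embryo. The double array left then lay above all acd arrays for 22 Hox genes, beside 22.9% of all genes.

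Leaving out each array in turn gave these ranges. Genes called numbered 1 to 3 in acd against wt, 0 to 1 in p53 against wt, 1 to 1756 in double against p53, 0 to 1876 in double against acd, 1 to 1646 in double against wt and 0 to 439 for the interaction, the highest count of each double comparison and of the interaction being that without double replicate 3. Hox genes called numbered 0 to 5 in each of the 3 double comparisons and 0 to 2 for the interaction, again highest without double replicate 3. The Hox median difference ran from -0.218 to -0.127 in acd against wt, from -0.085 to 0.0095 in double against p53, from -0.096 to 0.011 in double against wt and from 0.067 to 0.171 for the interaction. The value for Hoxa4, p53 against wt, ran from -0.246 to 0.055. Hox genes with all double arrays above all acd arrays numbered 6 to 12, beside 6.71% to 18.3% of all genes, the highest share being that without double replicate 3. Depth could not be judged, since the files hold no signal over background, and 3 embryos per genotype limit every comparison.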
